A study of Mus musculus with 24 samples.

Results

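Canonical NF-kB signalling was examined through 10 genes: the DNA-binding subunits Nfkb1, Rel and Rela, the kinase subunits Chuk, Ikbkb and Ikbkg, the inhibitors Nfkbia, Nfkbie and Nfkbiz, and the ubiquitin editor Tnfaip3. Members were the probe sets of the array that its annotation gives to 1 of these genes and to no other gene. 8 of the 10 genes had such a probe set, 25 probe sets in all, out of 18193 genes and 34945 probe sets with 1 gene. Ikbkg had 6, Ikbkb and Nfkbia had 5 each, Nfkbiz had 3, Nfkbie and Tnfaip3 had 2 each, and Rel and Rela had 1 each. Nfkb1 and Chuk were not analysed here.

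The RNA came from splenic B cells of female mice aged 7 weeks, of the NOD strain, which develops autoimmune diabetes, or of the C57BL/6/J (B6) strain, which does not. Splenocytes of 8 mice were pooled, T and myeloid cells were depleted, and T1, T2FO, T3, FO, T2MZ and MZ cells were sorted by flow cytometry with antibodies to CD93, CD23, CD21/35, IgM, CD24 and B220. T1, T2FO, T3 and T2MZ are transitional stages, and FO and MZ are the mature follicular and marginal zone cells. The sort was repeated once, so each of the 12 groups has 2 arrays, and the 24 arrays trace back to 4 pools of mice, 2 per strain. No animal was treated, and no group carries an engineered allele.

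NF-kB factors wait in the cytoplasm of resting B cells, held by inhibitors of kappa B such as IkBa (Nfkbia) and IkBe (Nfkbie). Signals from the antigen receptor, Toll-like receptors or CD40 activate a kinase complex of the catalytic subunits IKKa (Chuk) and IKKb (Ikbkb) and the scaffold NEMO (Ikbkg), which marks the inhibitors for destruction and frees Rel and Rela for the nucleus. Several inhibitors are themselves NF-kB targets and close a feedback loop. So is Tnfaip3, which encodes A20, a ubiquitin editor that shuts the signal off. In B cells this pathway is known for its part in survival, in proliferation after antigen contact and in the formation of marginal zone cells.

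That feedback can be looked for in the sequence before the start sites. The windows shown hold the 250 bases before a start site, 5′ to 3′ in the direction of the gene, from RefSeq on build GRCm38.p6. They are printed because, of the 7 members with a window in that table (11 windows in all), these 4 genes hold a match to the kappa B consensus, an element of 10 bases searched on both strands. Capitals mark the match. In the Rel window several matches overlap and are marked as 1 block.
Nfkbia, chr12:55492648-55492897, minus strand: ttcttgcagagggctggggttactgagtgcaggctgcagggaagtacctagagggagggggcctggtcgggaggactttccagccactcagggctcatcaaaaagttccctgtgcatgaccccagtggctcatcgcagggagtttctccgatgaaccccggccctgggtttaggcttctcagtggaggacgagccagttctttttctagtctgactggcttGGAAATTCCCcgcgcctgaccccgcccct
Nfkbie, chr17:45555450-45555699, plus strand: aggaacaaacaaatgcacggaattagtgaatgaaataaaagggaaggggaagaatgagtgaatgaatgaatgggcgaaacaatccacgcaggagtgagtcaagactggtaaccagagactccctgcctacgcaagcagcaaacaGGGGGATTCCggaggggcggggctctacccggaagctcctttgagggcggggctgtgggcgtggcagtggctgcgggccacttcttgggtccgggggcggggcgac
Rel, chr11:23770970-23771219, minus strand: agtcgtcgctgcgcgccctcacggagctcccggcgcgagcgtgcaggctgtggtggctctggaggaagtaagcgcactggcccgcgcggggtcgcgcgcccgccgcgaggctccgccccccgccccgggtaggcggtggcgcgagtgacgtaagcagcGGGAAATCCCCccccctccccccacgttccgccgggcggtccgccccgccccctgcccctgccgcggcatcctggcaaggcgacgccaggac
Tnfaip3, chr10:19015411-19015660, minus strand: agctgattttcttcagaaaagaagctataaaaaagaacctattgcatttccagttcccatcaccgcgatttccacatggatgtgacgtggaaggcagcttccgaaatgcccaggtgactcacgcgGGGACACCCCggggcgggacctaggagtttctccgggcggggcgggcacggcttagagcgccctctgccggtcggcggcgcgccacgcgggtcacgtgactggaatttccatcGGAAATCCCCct
The match of Nfkbia lies at bases -29 to -20 before the start, and that of Nfkbie at -106 to -97. The block of Rel covers bases -92 to -82. Tnfaip3 holds one at -125 to -116 and another at -12 to -3. The windows of Rela, Chuk and Ikbkg and a second window of Tnfaip3 held none, and 3.9% of all 32851 windows of this length in the table held at least 1. Counted by gene, 4.455% of 27025 genes held a match in at least 1 window. A match describes these letters only.

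In the deposited table the median of every probe set across the arrays is 0. A value, on the log2 scale, therefore tells how one array departs from the others and says nothing of the expression level. Fewer cells of a kind and less RNA per cell cannot be told apart in them. A difference was called when its adjusted p (limma with Benjamini-Hochberg adjustment over all 34945 probe sets) was under 0.05. Nothing in the labels separates the arrays of 1 pool further, so the p-values rest on the spread between 2 arrays per group or 2 pools per strain. Contrasts by subset and F tests take the arrays of 1 pool as independent.

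Features of the whole series touch the members. The 5′ control of beta-actin divided the B6 arrays into a low arm (-4.04 to -3.27; replicate 2 of T1, T2FO, T3 and T2MZ and replicate 1 of FO and MZ) and a high arm (-1.36 to 0.47; the other array of each subset). In NOD it lay between -0.54 and 0.80. The NOD subset labels ran against the transcripts of the sort markers. Cr2, which encodes CD21/35, was highest of the NOD groups in the arrays labelled T1, at 1.20, and was lowest in B6 T1, at -1.72. The NOD groups are therefore named by label. Of 6 B cell markers 5 were measured, and their median per array lay between -1.24 and -0.15 in the low B6 arm, -0.18 and 0.31 in the high arm and -0.23 and 0.25 in NOD. Medians of 6 plasma cell markers reached 1.79 and 2.57 in the NOD arrays labelled T2FO, and those of 8 myeloid markers reached 2.86 and 2.75 in the NOD arrays labelled FO and, highest of B6, 1.66 in replicate 2 of MZ (-0.21 in replicate 1). The part of these features in the results was not tested.

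**Figure D1:**
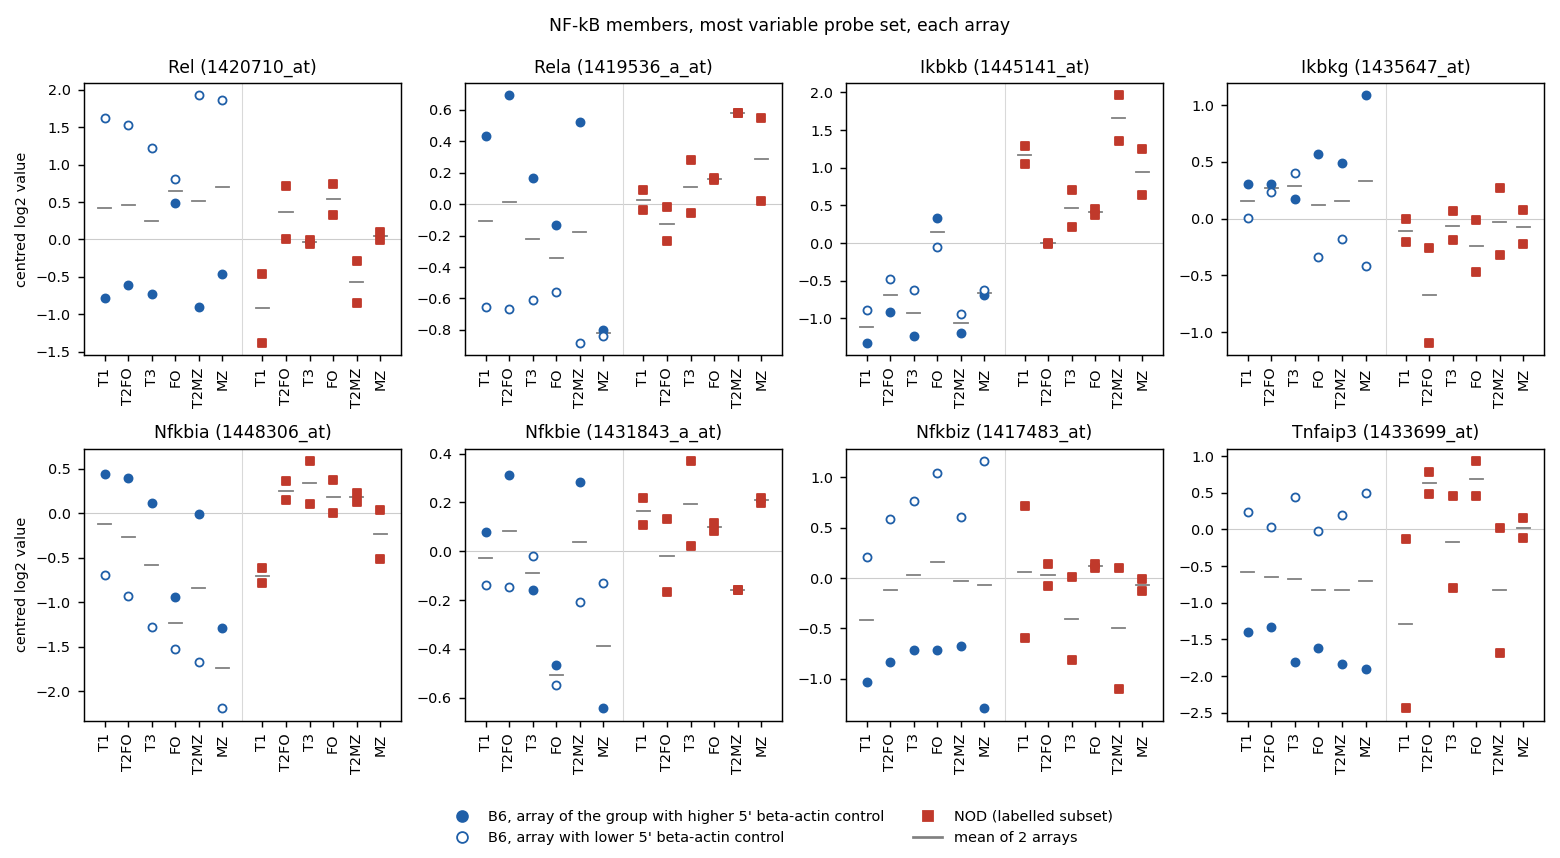
Centred log2 value (vertical axis) of the most variable probe set of each of the 8 measured genes, 1 point per array, in the 6 B6 groups (left in each panel) and the 6 NOD groups by label (right). Grey bars are means of 2 arrays, and open circles are the B6 arrays low in the 5′ beta-actin control. Rel, Nfkbiz and Tnfaip3 are higher in the open than in the filled circle of every B6 subset, Nfkbia and Rela are lower, and Ikbkb separates the strains in most subsets.

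The subunits Rel and Rela showed no called difference between strains or subsets in the fits on all 24 arrays. Rel encodes c-Rel, a subunit found mainly in lymphocytes and needed for B cell proliferation. In B6 its replicates 1 and 2 were -0.78 and 1.62 in T1, -0.60 and 1.53 in T2FO, -0.73 and 1.23 in T3, 0.81 and 0.49 in FO, -0.90 and 1.92 in T2MZ, and 1.86 and -0.47 in MZ. In 5 subsets of B6 the arrays lay on either side of 0, while both FO arrays lay above it, and the 6 arrays of the low 5′ arm (0.81 to 1.92) all lay above the 6 of the high arm (-0.90 to 0.49). In NOD the values were -0.46 and -1.38 in the arrays labelled T1, 0.01 and 0.71 in T2FO, -0.01 and -0.06 in T3, 0.32 and 0.75 in FO, -0.28 and -0.85 in T2MZ, and -0.01 and 0.10 in MZ. Those labelled T1 and T2MZ were lowest.

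Over the subsets the NOD mean of Rel was -0.10 and the B6 mean 0.50, a difference of -0.60 ± 0.38 (SE, 2 against 2 pools; limma, adjusted p = 0.518). The sign depended on the B6 arrays. Against the high arm NOD was 0.40 ± 0.16 higher, and against the low arm the difference was -1.59 ± 0.16. These and later errors against 1 arm take arrays of 1 pool as independent. Among the B6 subsets the F statistic was 0.05, so subset means of Rel lay far closer together than the arrays within a subset.

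Rela encodes p65, a subunit with an activation domain of its own, and its B6 arrays ran the other way. Its B6 values, replicate 1 then 2, were 0.44 and -0.65 in T1, 0.69 and -0.67 in T2FO, 0.16 and -0.61 in T3, -0.56 and -0.13 in FO, 0.53 and -0.88 in T2MZ, and -0.84 and -0.80 in MZ. The low 5′ arm was below the high arm in 6 of 6 subsets, though both MZ arrays were low and the ranges overlap. NOD lay between -0.23 and 0.58, highest in the arrays labelled T2MZ (0.58 and 0.58). The difference over subsets was 0.45 ± 0.25 (adjusted p = 0.451). It was 0.02 ± 0.10 against the high arm and 0.88 ± 0.10 against the low arm.

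The 5′ control moved with several other members. Some probe sets of Tnfaip3 and Nfkbiz, 2 genes induced quickly by NF-kB, followed the pattern of Rel. In Tnfaip3 (1433699_at) the low arm lay between -0.03 and 0.50 and the high arm between -1.91 and -1.33. In Nfkbiz (1417483_at) the low arm lay between 0.20 and 1.16 and the high arm between -1.29 and -0.67, and in Nfkbiz 1448728_a_at between -0.19 and 0.12 and between -1.37 and -1.08. With Rel these made 4 of 25 member probe sets whose low arm lay wholly above the high arm, against 6.5% of all probe sets. None lay wholly below, against 6.94% of all. The remaining probe sets of these 2 genes had overlapping arms, with the low arm above the high in 5 of 6 subsets. Tnfaip3 1450829_at lay between -0.36 and 0.31 in the low and between -0.84 and 0.26 in the high arm, and Nfkbiz 1457404_at between -0.16 and 0.94 and between -0.58 and 0.81. Nfkbia 1448306_at was lower in the low arm in 6 of 6 subsets (means -1.38 and -0.21) with overlapping ranges.

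**Figure D2:**
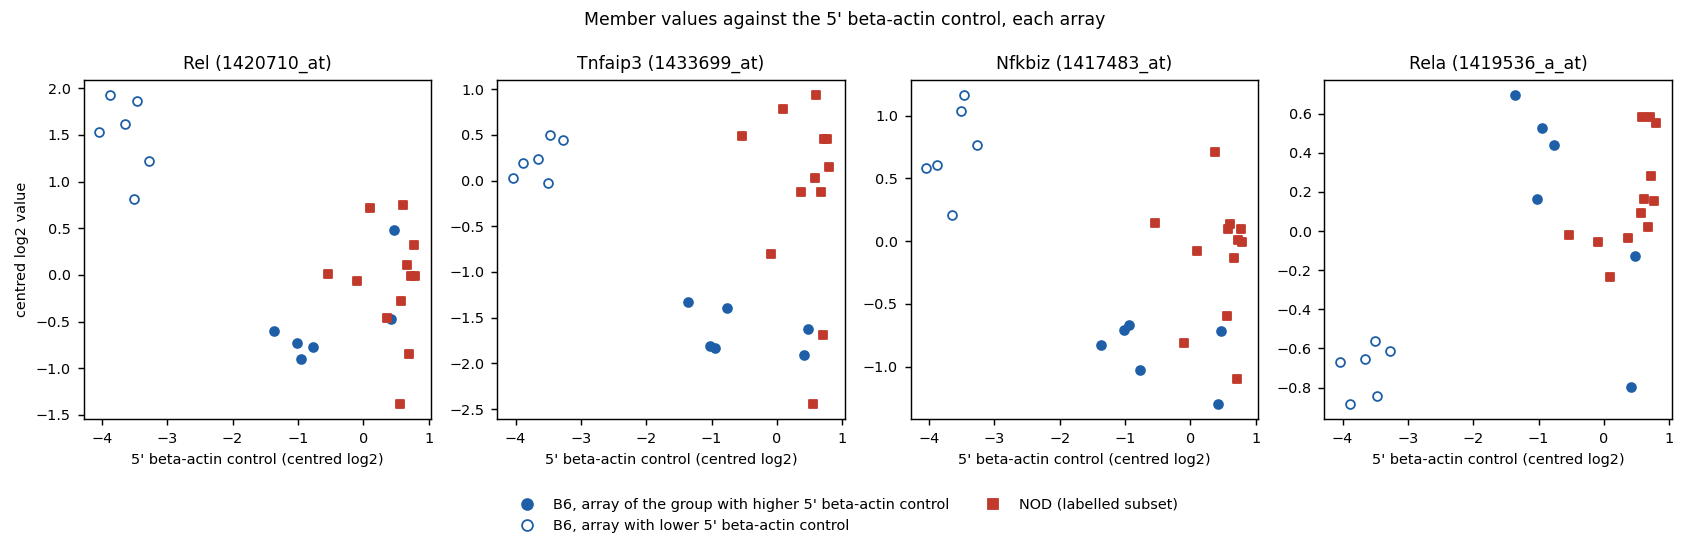
Centred log2 value of Rel, Tnfaip3, Nfkbiz and Rela (vertical axes) against the 5′ beta-actin control of the same array (horizontal axis, centred log2), 24 arrays per panel. The 6 open circles, B6 arrays with a control between -4.04 and -3.27, stand above the 6 filled circles in the first 3 panels, while the NOD arrays lie at a control between -0.54 and 0.80.

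The inhibitor Nfkbia held the only member probe set called among the B6 subsets. IkBa, its product, is the inhibitor that is degraded and remade fastest. In B6, 1438157_s_at read 0.01 and 0.36 in T1, 0.09 and 0.09 in T2FO, -0.06 and -0.31 in T3, -0.22 and -0.44 in T2MZ, -0.38 and -0.66 in FO, and -0.86 and -0.72 in MZ. T1 was highest and MZ lowest, and of the neighbours in this order T2FO and T3, and FO and MZ, did not overlap. This probe set changed among the B6 subsets (F = 8.69, limma, adjusted p = 0.0396), 1 of 25 members called where 1.56% of all probe sets were. The call was lost without either array of T1, T2FO or MZ, without replicate 2 of FO or of T2MZ (adjusted p = 0.0504 to 0.124), and after quantile normalization of the arrays (F = 4.29, adjusted p = 0.427). Both 5′ arms held a similar mean, -0.25 in the low and -0.26 in the high.

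In NOD the same probe set read 0.63 and 0.22 in the arrays labelled T2FO, 0.53 and 0.28 in T3, 0.27 and 0.09 in T2MZ, 0.14 and 0.08 in FO, -0.01 and -0.28 in MZ, and -0.35 and -0.38 in T1. The arrays labelled T1 lay below all other NOD arrays. Among the NOD groups its F was 6.17 (adjusted p = 0.103), which was not called. The arrays labelled T1 minus those labelled T2MZ gave -0.54 ± 0.18 (adjusted p = 0.272). In that contrast limma called 0 of 25 members and gave 3 an unadjusted p under 0.05. Of all 34945 probe sets 1.29% were called and 2157 had an unadjusted p under 0.05.

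The other probe sets of Nfkbia had much the same low points. Group means were lowest in B6 MZ for 4 of 5 probe sets (in T2MZ for 1420088_at), and in the NOD arrays labelled T1 for 5 of 5. These 2 groups also held the highest Tlr3 of their strain, 3.72 in B6 MZ and 4.75 in NOD labelled T1. Tlr3 is a gene of marginal zone B cells. The coincidence was seen after the values and has no test. In the most variable probe set, 1448306_at, B6 MZ read -2.19 and -1.29 and B6 T1 read 0.44 and -0.69, while the NOD arrays labelled T1 read -0.62 and -0.78.

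Nfkbia in B6 T1 against FO came nearest to a call among its contrasts within B6. 1438157_s_at was 0.70 ± 0.18 higher in T1 (adjusted p = 0.0819), and 1448306_at was 1.11 higher, without a call. Only Ikbkb 1445141_at was called in this contrast, with 1.12% of all probe sets. When the 5′ arm was added to the fit as a block, Nfkbia 1448306_at (1.11 ± 0.24, adjusted p = 0.0182) and 1438157_s_at (adjusted p = 0.0372) were higher in T1, and Nfkbiz 1457404_at (-1.23 ± 0.29, adjusted p = 0.0249) and Ikbkb 1445141_at (-1.25 ± 0.26, adjusted p = 0.0121) lower. These were 4 of 25, with 4.36% of all probe sets called. With that block 3 of 25 changed among the B6 subsets, Nfkbia 1448306_at (F = 12.5, adjusted p = 0.00425), Nfkbia 1438157_s_at (adjusted p = 0.0176) and Ikbkb 1445141_at (adjusted p = 0.0403), against 6.07% of all.

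Between strains Nfkbia was not called over the subsets. 1449731_s_at was 0.68 ± 0.14 higher in NOD (means 0.39 and -0.29, adjusted p = 0.0879) and 1448306_at 0.80 ± 0.26 higher (adjusted p = 0.198). 1438157_s_at was 0.36 ± 0.11 higher (adjusted p = 0.185), while 1420089_at was 0.48 lower (-0.48 ± 0.12, adjusted p = 0.127). The probe sets of this gene thus did not run one way over the subsets. The difference of 1438157_s_at was 0.36 against either B6 arm, and that of 1448306_at 0.22 against the high and 1.38 against the low arm. In the arrays labelled T1, 1420088_at (-0.46), 1438157_s_at (-0.55), 1448306_at (-0.58) and 1449731_s_at (-0.54) were lower in NOD, none of them called. There 1420089_at was called lower in NOD, with -0.42 and -1.09 against 0.63 and 0.44 in B6 T1 (difference -1.29 ± 0.33, adjusted p = 0.0303). The call was lost without either B6 array (-1.20 without replicate 1 and -1.38 without replicate 2, adjusted p = 0.172 and 0.0887) or without replicate 2 of NOD (-0.96, adjusted p = 0.263).

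**Figure D3:**
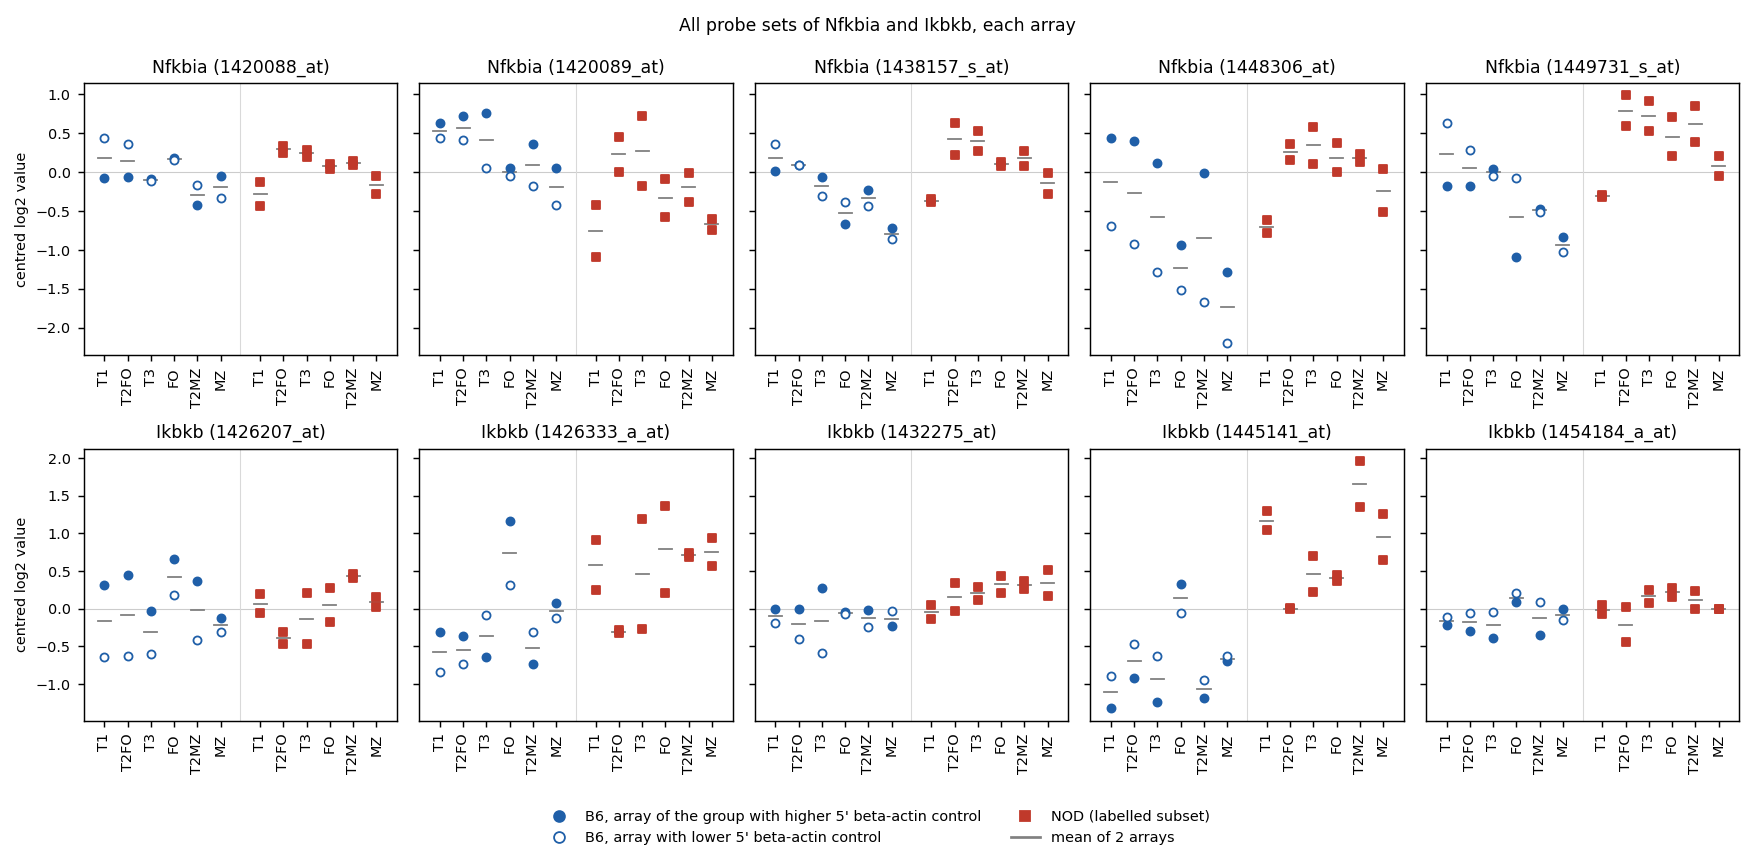
Centred log2 value (vertical axis) of the 5 probe sets of Nfkbia (top) and the 5 of Ikbkb (bottom), 1 point per array in the B6 groups (left in each panel) and the NOD groups by label (right), with grey bars for means of 2 arrays. Nfkbia 1438157_s_at steps down from B6 T1 (0.01 and 0.36) to MZ (-0.86 and -0.72) and is lowest of NOD in the arrays labelled T1, and among the Ikbkb panels 1445141_at sets the strains furthest apart.

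The inhibitor Nfkbie, whose product IkBe holds c-Rel and p65 in B cells, varied little. 1431843_a_at lay between -0.64 and 0.31 in B6 and between -0.17 and 0.37 in NOD. In B6 it was low in FO (-0.55 and -0.47) and in MZ (-0.13 and -0.64). The other probe set, 1458299_s_at, read -0.47 and -0.39 in B6 FO, below every other B6 array. Both probe sets had their lowest group mean in B6 FO and in the NOD arrays labelled T2MZ. These groups held the highest mean Fcer2a (CD23) of each strain, 1.70 (arrays 0.74 and 2.65) and 1.64. Fcer2a was nearly as high in the NOD arrays labelled T3, at 1.54, where 1431843_a_at had a mean of 0.195 and 1458299_s_at of -0.039. No test was made of Nfkbie against Fcer2a. 1458299_s_at was 0.51 ± 0.17 higher in B6 MZ than in FO (adjusted p = 0.348). In this contrast limma called 0 of 25 members, and 2 had an unadjusted p under 0.05. Of all 34945 probe sets 0.667% were called and 2187 had an unadjusted p under 0.05. The strain differences of Nfkbie over subsets were 0.23 ± 0.13 and -0.11 ± 0.10, neither called (adjusted p = 0.449 and 0.691).

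Nfkbiz encodes a nuclear member of the inhibitor family that acts as a coactivator, and its 3 probe sets disagreed. 1448728_a_at lay between -1.37 and 0.12 in B6 and between -0.14 and 0.84 in NOD. It was 0.92 ± 0.14 higher in NOD over the subsets, just outside the call (adjusted p = 0.0536), with 1.52 ± 0.12 against the high B6 arm and 0.32 ± 0.12 against the low arm. 1417483_at gave -0.05 ± 0.23 over the subsets (adjusted p = 0.953), 0.75 ± 0.23 against the high and -0.86 ± 0.23 against the low arm. Its sign thus turned with the B6 arm.

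The third probe set of Nfkbiz, 1457404_at, was the one that followed the subsets. In B6 it read -0.58 and -0.16 in T1, -0.32 and 0.39 in T2FO, 0.07 and -0.09 in T3, 0.15 and 0.45 in T2MZ, 0.94 and 0.79 in FO, and 0.83 and 0.81 in MZ. The mature FO and MZ arrays lay above all transitional ones, though the F among B6 subsets was 4.97 (adjusted p = 0.195). Over the subsets NOD minus B6 was -0.45 ± 0.12 (limma, adjusted p = 0.14), and in T1 it had the other sign (0.81 ± 0.31, adjusted p = 0.161). Neither was called. The highest NOD group was that labelled T1 (0.73 and 0.17). In the NOD arrays labelled FO this probe set read -0.25 and -0.69. The strain difference in FO was called (-1.33 ± 0.31, adjusted p = 0.0313), the only member called there, with 2.98% of all probe sets. Without any 1 of the 4 arrays it was -1.56 to -1.11 and not called (adjusted p = 0.0702 to 0.288). The myeloid markers were high in the same NOD arrays (2.86 and 2.75, against 0.52 at most in B6 FO).

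Among the kinase genes, Ikbkb, the catalytic subunit that canonical signalling depends on, held the only member called over the subsets. In B6, 1445141_at read -1.32 and -0.89 in T1, -0.91 and -0.47 in T2FO, -1.24 and -0.63 in T3, -0.05 and 0.33 in FO, -1.19 and -0.94 in T2MZ, and -0.63 and -0.69 in MZ. In NOD it read 1.29 and 1.05 in the arrays labelled T1, -0.01 and 0.01 in T2FO, 0.71 and 0.22 in T3, 0.37 and 0.45 in FO, 1.36 and 1.96 in T2MZ, and 0.64 and 1.25 in MZ. Replicate 2 of B6 FO (0.33) lay within the NOD range, and the other 11 B6 arrays lay below every NOD array. No member set all 12 NOD arrays apart from all 12 B6 arrays, as 2.39% of all probe sets did.

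The NOD mean of this probe set over subsets was 0.77 and the B6 mean -0.72. The difference of 1.49 ± 0.15 (SE, 2 against 2 pools) was called (limma, adjusted p = 0.0238). This was 1 of 25 members, or 1 of 8 genes, against 3.27% of all probe sets. The median difference of the 25 members was 0.09, with 15 above 0, and that of all probe sets was -0.03. Against the high and the low B6 arm the difference was 1.61 ± 0.13 and 1.38 ± 0.13, about as large in each. With the 5′ minus 3′ beta-actin control as a covariate on the pool means the difference was 2.59. It was then not called (limma, adjusted p = 0.148). When either NOD pool was left out it was 1.54 and 1.44 and no longer called (adjusted p = 0.205 and 0.177), and no probe set of the array was called then. The B6 pools follow the replicate numbers, and with those of FO and MZ crossed between the pools the call was lost too (adjusted p = 0.0886), as it was with the replicate number as a block (adjusted p = 0.0647).

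By labelled subset Ikbkb 1445141_at was higher in NOD in T1 (2.28 ± 0.28, adjusted p = 0.000114), T3 (1.39 ± 0.28, adjusted p = 0.0184), T2MZ (2.72 ± 0.28, adjusted p = 7.18e-05) and MZ (1.61 ± 0.28, adjusted p = 0.00516). The difference was 0.69 ± 0.28 in T2FO (adjusted p = 0.265) and 0.27 ± 0.28 in FO (adjusted p = 0.792), neither called. In fits of only the arrays compared, the calls in T3, T2MZ and MZ were lost. The call in T3 was lost without replicate 1 of B6 (1.09, adjusted p = 0.163) or of NOD (1.15, adjusted p = 0.234), and that in MZ without replicate 2 of NOD (1.30, adjusted p = 0.0909). These calls were 1 of 2 members in T1, beside Nfkbia 1420089_at, where 6.44% of all probe sets were called, and the only member in T3 (1.84%), T2MZ (2.74%) and MZ (2.6%). In T2FO limma called 0 of 25 members and gave 3 an unadjusted p under 0.05. Of all 34945 probe sets 2.72% were called and 4737 had an unadjusted p under 0.05. The strain difference differed between labelled subsets (interaction F = 11.1, adjusted p = 0.0163; 1 of 25, against 1.58% of all), a call lost without replicate 1 of NOD labelled T1 (F = 9.75, adjusted p = 0.0506).

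Within each strain Ikbkb 1445141_at also varied. Among the NOD groups it changed (F = 9.34, adjusted p = 0.0253; 1 of 25 members, against 1.95% of all probe sets). The arrays labelled T2MZ lay above all other NOD arrays, those labelled T1 came next and overlapped with MZ, and those labelled T2FO were lowest. The call was lost without either array of those labelled T1, T2FO or FO, or without replicate 2 of T2MZ (F of 6.45 to 8.75, adjusted p = 0.0504 to 0.123). In B6 it was 1.25 lower in T1 than in FO (-1.25 ± 0.28, adjusted p = 0.0443), and FO was the highest group. Without any 1 of the 4 arrays of this contrast it was -1.46 to -1.03 and not called (adjusted p = 0.0715 to 0.428). Between T1 and T2FO of B6 limma called 0 of 25 members and gave none an unadjusted p under 0.05, and 0% of all probe sets were called (406 of 34945 at an unadjusted p under 0.05).

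The other 4 probe sets of Ikbkb were not called in any of these comparisons on all 24 arrays. 1426333_a_at was 0.71 ± 0.23 higher in NOD over the subsets (adjusted p = 0.193), 1432275_at 0.34 ± 0.15, 1454184_a_at 0.15 ± 0.13 and 1426207_at 0.09 ± 0.20. All 5 had the same sign, and the 5 averaged gave 0.56 (adjusted p = 0.0653). In B6 all 5 had their highest group mean in FO, such as 0.31 and 1.17 for 1426333_a_at. In NOD the highest group was that labelled T2MZ, FO or MZ. Against the high B6 arm, 1426207_at turned to -0.25 ± 0.11. Which part of the transcript each probe set reads was not analysed here.

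Ikbkg encodes NEMO, the scaffold that links the kinases to ubiquitin chains. Its 6 probe sets gave strain differences over the subsets between -0.42 and 0.08, 5 of them negative and none called. The most variable, 1435647_at, was -0.42 ± 0.13 (adjusted p = 0.183). Its B6 arrays lay between -0.42 and 1.08 and its NOD arrays between -1.09 and 0.27, with the lowest value in a NOD array labelled T2FO and the highest in B6 MZ replicate 2. The difference was -0.69 ± 0.15 against the high B6 arm and -0.15 ± 0.15 against the low arm. The difference over subsets was -0.26 ± 0.11 in 1421209_s_at, -0.25 ± 0.21 in 1435646_at, -0.11 ± 0.10 in 1421208_at, -0.07 ± 0.09 in 1454690_at and 0.08 ± 0.15 in 1450161_at. All of these were smaller than that of 1435647_at.

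**Figure D4:**
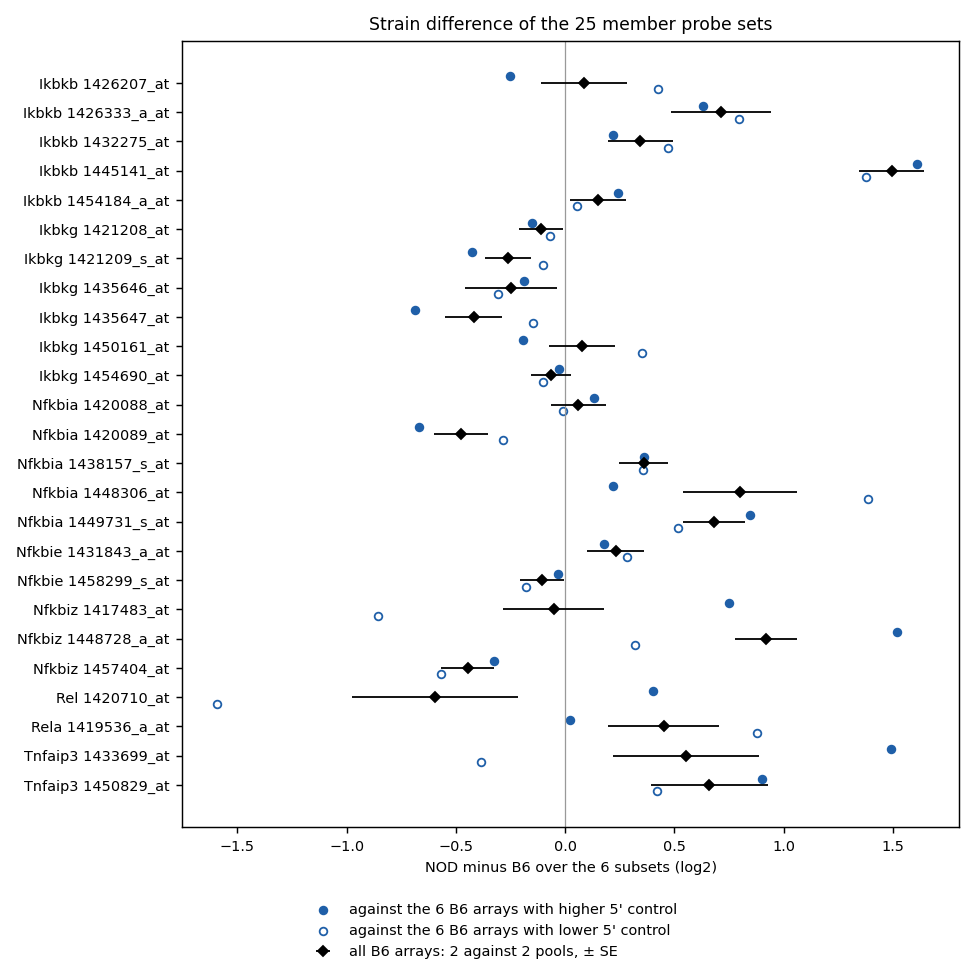
NOD minus B6 over the 6 subsets (horizontal axis, log2) for the 25 member probe sets. Black diamonds with bars are the difference ± SE of 2 against 2 pools, and filled and open circles are the difference from the 6 B6 arrays high and the 6 low in the 5′ beta-actin control. Ikbkb 1445141_at, at 1.49, is furthest from 0 with both circles near it, while Rel (0.40 and -1.59) and Tnfaip3 1433699_at (1.49 and -0.39) have circles on either side of 0.

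Tnfaip3, the ubiquitin editor A20, had no called difference in the fits on all 24 arrays. In B6, 1433699_at read, replicate 1 then 2, -1.39 and 0.24 in T1, -1.33 and 0.03 in T2FO, -1.81 and 0.45 in T3, -0.03 and -1.62 in FO, -1.83 and 0.19 in T2MZ, and 0.50 and -1.91 in MZ. Subset means lay between -0.82 and -0.58 (F = 0.02), and each subset held 1 array of each 5′ arm. In NOD it read -0.13 and -2.44 in the arrays labelled T1, 0.49 and 0.78 in T2FO, 0.46 and -0.80 in T3, 0.46 and 0.93 in FO, 0.03 and -1.69 in T2MZ, and 0.15 and -0.12 in MZ. Replicate 2 was far below replicate 1 in those labelled T1 and T2MZ, and below it by less in T3 and MZ. It was above replicate 1 in T2FO and FO.

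The median of the immediate early and stress genes moved with Tnfaip3 in the NOD arrays labelled T1 and T2MZ, though not every gene of the list did. The median of 15 such genes was -2.02 in replicate 2 of NOD labelled T1 and -1.85 in replicate 2 of T2MZ, against 0.17 and 0.15 in replicate 1. Fos, a transcription factor gene induced within minutes of a stimulus or of cell handling, read -5.06 and -3.78 in these 2 arrays. Hspa1a was low in both replicates, at -3.91 and -3.92 in NOD labelled T1 and -3.86 and -3.97 in T2MZ. In NOD labelled T3 the list median was 0.60 and -0.29 in replicates 1 and 2, and in MZ 0.16 and -0.15. It was 0.53 and 0.93 in T2FO and 0.06 and 0.86 in FO. In B6 the list median was 0.04 to 0.61 in the low 5′ arm and -0.90 to 0.02 in the high arm. The part of this list in the values of Tnfaip3, Rel and Nfkbiz was not tested.

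Over the subsets Tnfaip3 1433699_at was 0.55 ± 0.33 higher in NOD (adjusted p = 0.488), 1.49 ± 0.36 higher against the high B6 arm and 0.39 lower against the low arm (-0.39 ± 0.36). The other probe set, 1450829_at, was 0.66 ± 0.27 higher (adjusted p = 0.288), with 0.90 ± 0.32 and 0.42 ± 0.32 against the arms. Its NOD arrays labelled FO, 1.48 and 0.96, lay above all B6 arrays (-0.84 to 0.31).

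Counts of members called against a single B6 arm took arrays of 1 pool as independent, so their p-values are too small. Against the high arm 9 of 25 members were called, with 27% of all probe sets, and against the low arm 12 of 25, with 34.9% of all. Ikbkb 1445141_at, Nfkbia 1449731_s_at and 1438157_s_at and Nfkbiz 1417483_at were called against both, the last with opposite signs.

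The members fell into a few patterns over the 24 arrays once the mean of each strain was taken off. These Pearson correlations describe arrays that share pools, labels and the 5′ signal. Tnfaip3 went with Rel (0.87) and Nfkbiz (0.82), Nfkbia with Rela (0.78), and Rel against Rela (-0.71). Over all genes the closest to Rel was Cdc42 (0.96), followed by Zbtb10 and Tiparp. Tnfaip3 was closest to Dnajb9 (0.95), Rgs1 and Klf6, Nfkbiz to Eif5 (0.94), Rab10os and Srsf6, and Nfkbia to Cxxc5 (0.95), Kcnab2 and N4bp3. Rela was closest to Mfng (0.96), Retreg2 and Rnf40, Ikbkb to Med23 (0.90), Cnot10 and Pcgf6, Ikbkg to Rnf113a1 (0.89), Dhrs7b and Pdrg1, and Nfkbie to Macroh2a1 (0.91), Sh3glb2 and Trim28.

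The rest of the pathway was counted by the most variable probe set of each gene, a scale on which 4.71% of 18193 genes were called over the subsets, with a median difference of -0.02. In the chain from receptors to the kinase complex 0 of 11 measured genes were called by limma, 9 differences were above 0 and their median was 0.85. Within labelled subsets Prkcb, the protein kinase C that links the antigen receptor to NF-kB, was higher in NOD in T2MZ (2.13 ± 0.50, adjusted p = 0.0321; 3.66% of genes called). Irak1, a kinase behind Toll-like receptors, was higher in MZ (1.93 ± 0.36, adjusted p = 0.0095; 3.54%). The noncanonical arm had 0 of 8 genes called over the subsets, the other inhibitors of kappa B 0 of 5, and the ubiquitin editors 1 of 11. That one, Otud7b, a deubiquitinase, was lower in NOD (-0.77 ± 0.11, adjusted p = 0.047).

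Of 21 measured NF-kB target genes 3 were called over the subsets, all lower in NOD, while 12 of the 21 differences were above 0 and the median was 0.10. They were Cd44, an adhesion receptor (-1.35 ± 0.10, adjusted p = 0.0175), Pim1, a survival kinase (-1.11 ± 0.16, adjusted p = 0.0477), and Cd86, a costimulatory ligand (-0.78 ± 0.11, adjusted p = 0.0442). By labelled subset 5 of the 21 were called in T1 (7.65% of genes), 2 in T2FO (3.56%), 1 in T3 (2.66%), 2 in T2MZ and 3 in MZ. In FO limma called 0, with 3.66% of genes. Cd44 was called lower in NOD in all of these but FO, where it was not called. The largest called difference was in T2MZ (-2.05 ± 0.17). Of the 5 called in T1, 4 were lower in NOD, among them Cd44 (-1.44 ± 0.17, adjusted p = 9.95e-05), Ccnd2, a cyclin of the B cell cycle (-2.41 ± 0.46, adjusted p = 0.00479), and Pim1 (-1.67 ± 0.37, adjusted p = 0.0122). The higher one was Traf1, an adaptor of the tumour necrosis factor receptors (3.76 ± 0.58, adjusted p = 0.000881). The sort marker Cd93 had a mean of -2.09 in the NOD arrays labelled T1 and of 3.06 in B6 T1. The part of the NOD labels in these differences was not tested.

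Within B6 the same targets gave 3 of 21 called among subsets (1.97% of genes), Cd86 (F = 12.3, adjusted p = 0.011), Traf1 (F = 9.64, adjusted p = 0.0274) and Ebi3, a cytokine subunit (F = 8.16, adjusted p = 0.0483). Cd86 (1.48 ± 0.24, adjusted p = 0.00879) and Cd44 (0.85 ± 0.17, adjusted p = 0.0354) were higher in MZ than in FO, 2 of 21 against 0.835% of genes. Myeloid cells express both genes, and the median of the 8 myeloid markers was -0.21 and 1.66 in the MZ arrays and -0.37 and 0.52 in the FO arrays. Its part in these differences was not tested. Among the NOD groups 1 of 21 was called, Cd44 (F = 10.7, adjusted p = 0.0149), with 2.46% of genes. With the 5′ arm as a block 0 of 25 members were called between MZ and FO of B6, where 1.93% of all probe sets were.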

How the data were processed

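The members, the pathway and marker lists and the contrasts were chosen with earlier results of these data known. RNA of sorted B cells was amplified in 2 cycles from an Oligo(dT)-T7 primer, per the labels' protocols, and hybridised to Affymetrix mouse genome arrays. Per the submitters' processing notes the authors used RMA, with no version named. The deposited table holds the authors' log2 values of 45101 probe sets. The base 2 is an assumption, since no label names it. Each was found centred on its own median, so no filter on low values was possible, none was applied, and all 25 member probe sets entered every test. Of the probe sets 64 were controls and 34945 had 1 gene.

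limma 3.58.1 in R 4.3.3 was run per probe set, with Benjamini-Hochberg adjustment over all 34945. For NOD against B6 over subsets the 6 arrays of each pool were averaged and 4 pool means were fitted. All other contrasts came from 12 group means over 24 arrays, which share 1 estimate of the spread. These contrasts take arrays of 1 pool as independent. Errors beside differences are standard errors. The fit was tested on simulated data. Each gene of a list is represented by the probe set that varied most (largest standard deviation, 24 arrays), a choice that favours probe sets that differ. All member probe sets entered the description, most in full and some by their strain difference or group means alone, and list members are named up to 4 called per contrast. The 5′ arms of B6 and the fits that use them were set after the control values were seen. The number of arrays limits the precision. Alternatives were other scalings, other choices of probe set, the 5′ signal, blocks on replicate number or pool, and leaving out arrays.

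Whether replicate numbers pair arrays was checked by correlating deviations from group means. The numbers stand for pools of 1 strain, so they pair arrays within a strain only. In B6 the correlations were 0.74 to 0.87 among T1, T2FO, T3 and T2MZ, 0.71 between FO and MZ, and -0.63 to -0.35 between these sets, a division that the 5′ control shares. In NOD they were -0.05 to 0.50. Promoter windows came from RefSeq tables of GRCm38.p6. Plots used Python 3.11.15 and matplotlib 3.10.9.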

Additional observations from a re-analysis of the deposited data

Results flagged for a closer look

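The strain difference of Ikbkb 1445141_at differed between the labelled subsets, with an interaction F of 11.13 (limma, adjusted p = 0.0163). It ran from 0.27 in FO to 2.72 in T2MZ, and rests on the NOD subset labels, which run against the transcripts of the sort markers. Their part in this difference was not tested. NOD minus B6 was above 0 in 6 of 6 subsets.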

How the results depend on the processing

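No member difference called on all 24 arrays changed sign under any alternative run. Strain differences over subsets that were not called on all arrays did turn between the B6 arms high and low in 5′ signal: Rel (0.40 and -1.59), Nfkbiz 1417483_at (0.75 and -0.86), Tnfaip3 1433699_at (1.49 and -0.39), Ikbkb 1426207_at (-0.25 and 0.42), Ikbkg 1450161_at (-0.19 and 0.35) and Nfkbia 1420088_at (0.13 and -0.01). Counts are of member probe sets called of 25 (of 8 genes for 1 row per gene). As reported they were 2 for NOD against B6 in T1, 0 in T2FO, between B6 MZ and FO, between B6 T2FO and T1 and between the NOD arrays labelled T1 and T2MZ, and 1 in each other comparison. The cause of these changes was not tested unless the setting itself holds fewer rows or arrays. Counts over all probe sets moved with the setting too, over subsets from 1141 as reported to 1444 after quantile normalization. Where no share of all probe sets stands beside it, a changed member count says nothing particular to the members. Quantile normalization gave 2 over subsets, 0 among B6 subsets, 2 among NOD groups, 0 for B6 T1 against FO and 1 for NOD labelled T1 against T2MZ. Centring each array gave 0 for B6 T1 against FO. The most variable probe set per gene gave 1 in T1 and 0 in FO and among B6 subsets. The mean of a gene's probe sets gave 0 over subsets, in T3, in FO, in MZ, among NOD groups, for the interaction and for B6 T1 against FO. Leaving out the less variable probe sets gave 2 over subsets and 0 among B6 subsets and for B6 T1 against FO.

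With the 5′ minus 3′ beta-actin control as covariate the counts were 0 over subsets, 6 in T1, 3 in T2FO, 2 in T3, 5 in FO, 3 in T2MZ, 4 in MZ, 4 among B6 subsets, 4 for the interaction and 4 for B6 T1 against FO. The 5′ arm of B6 as a block was added after seeing the data. With it the counts were 5 in T1, 3 in T2FO, 2 in T3, 5 in FO, 3 in T2MZ and 5 in MZ. The counts were 3 among B6 subsets (6.07% of all probe sets called) and 4 for B6 T1 against FO (4.36%). Without the 6 B6 arrays low in 5′ signal, also added, they were 9 over subsets, 1 in T2FO, 2 in T3, 3 in FO, 2 in T2MZ and 4 in MZ. Without the 6 high arrays they were 12 over subsets, 1 in T2FO, 2 in FO, 5 in T2MZ and 5 in MZ.

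With the replicate block the counts were 0 over subsets (Ikbkb 1445141_at, adjusted p = 0.0647), 2 in FO and MZ, 2 for the interaction and 2 for B6 T1 against FO. Between strains this block pairs unrelated pools, and it changed the count in no other comparison by over 1.5 times. The pool as a random block (correlation 0.11) gave 2 for the interaction and for B6 T1 against FO. Crossing the B6 numbers of FO and MZ gave 0 over subsets, and taking the 24 arrays as independent gave 9. With only the arrays compared, counts were 1 in T1, 1 for NOD labelled T1 against T2MZ, and 0 in T3, FO, T2MZ and MZ, among B6 subsets and for B6 T1 against FO.

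Leaving out 1 array or pool gave 0 to 5 over subsets, 1 to 2 in T1, and 0 to 1 in T3, FO, MZ, among B6 subsets, among NOD groups, for the interaction and for B6 T1 against FO. With 2 arrays per group and no level or signal over background in centred values, dim probe sets could not be told from bright ones.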
